A study of Mus musculus with 10 samples.

Results

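The prostaglandin and thromboxane genes described here were Slco2a1, Ptgs1, Ptgs2, Ptgis, Hpgd and Tbxa2r, which are 6 of the 22828 gene symbols with unique molecular identifiers (UMIs, each standing for 1 captured transcript) in at least 3 cells. They were taken by symbol, with no threshold on their own values, and their UMIs were read in all 10 libraries. The libraries hold endothelial cells (ECs) from femur and tibia of Cdh5-mTnG mice on C57BL/6, in which the endothelial Cdh5 promoter drives a nuclear GFP and a membrane tomato reporter, and lineage-depleted cells positive for both colours had been sorted. All 5 groups carried this reporter and comprised juvenile mice of both sexes at 3 weeks, untreated adult females at 12 weeks, aged females at 75 weeks, and 12-week-old females given parathyroid hormone (PTH) or alendronate, a bisphosphonate that inhibits bone resorption. Each group gave 2 libraries from pooled animals. The paper states that sequencing was done once for each group, so the 2 libraries may share a pool. Every p-value below measures the spread between libraries, which may be technical, and age and sex cannot be told apart in the juvenile group.

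Prostaglandins and thromboxane are short-lived lipid signals made from arachidonic acid. The cyclooxygenases encoded by Ptgs1 (constitutive in most tissues) and Ptgs2 (inducible) make the common precursor, and prostacyclin synthase (Ptgis) turns it into prostacyclin, the main endothelial product, which dilates vessels and restrains platelets. The carrier encoded by Slco2a1 takes prostaglandins up into the cell, 15-hydroxyprostaglandin dehydrogenase (Hpgd) inactivates them there, and Tbxa2r encodes the receptor for thromboxane, which constricts vessels. In bone, prostaglandins are known to act on both bone formation and bone resorption.

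In total 46283 cells had 500 to 6000 genes and under 25% mitochondrial UMIs, and 38749 of the 43708 endothelial cells fell into 5 types that were named from marker genes after the members had been held out of the clustering. These were 15483 sinusoidal (bmEC-like, led by Stab2 and Rgs4), 4285 cells of a cluster with Igfbp5 and Crispld1 among its leading genes, 7420 arterial (aEC-like, Gja4), 8484 metaphyseal (mpEC-like, Ramp3 and Aplnr) and 3077 type R cells (rEC-like, Timp4 and Aqp7). The Igfbp5/Crispld1 cells rest on 2 fixed markers, of which Igfbp5 also reached 379 CPM in mpEC-like cells, also had 921 to 1323 CPM (UMIs of a gene scaled to 1000000 in the sum) of the sinusoidal marker Stab2, and are therefore called by their genes. Stab2 itself spanned 1797 to 2513 CPM in bmEC-like cells, and Timp4 spanned 232 to 1694 CPM in rEC-like cells against at most 19.6 CPM elsewhere. Libraries held 10653583 to 28419323 UMIs, with medians of 3075 to 5149 per cell. UMIs were summed per type and library, and the sums ranged from 73102 in rEC-like cells of a juvenile library to 8415127. Only 51 and 31 rEC-like cells were found in the juvenile libraries and 42 in PTH library 1. The 2 aged libraries stood apart, because 276 symbols, with up to 1.55% of their UMIs, had no UMI in any other library, and because they shared 3 to 4 cell barcodes with others where the remaining pairs shared 10 to 88. Their median shares of mitochondrial UMIs were 2.31% and 2.42%, beside 1.15% to 1.43% in the other libraries. The series names versions 2 and 3 of the reagent kit without saying which libraries had which, and kit or counting and old age cannot be told apart.

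The members lie on 6 different places of the GRCm38 (mm10) genome, with coordinates from GENCODE vM21. Slco2a1 spans chr9:102988712-103096002 on the plus strand, Ptgs1 chr2:36230426-36252272 (plus), Ptgs2 chr1:150100031-150108227 (plus), Ptgis chr2:167191805-167240604 (minus), Hpgd chr8:56294585-56321043 (plus) and Tbxa2r chr10:81328731-81335172 (plus). Annotated non-coding genes overlap Slco2a1 (4, with Gm47468 antisense), Ptgs1 (Gm43621, opposite strand), Ptgis (1110018N20Rik and Gm14291, opposite strand) and Hpgd (Gm45540, same strand), and the strand setting of the authors' counting is not given in the sources used here. The 250 bases before the RefSeq start (GRCm38.p6, plus strand) follow for Slco2a1 and Ptgs1, whose levels moved together over the 50 sums of types and libraries (Pearson's r of log2 values 0.82), and for Tbxa2r, which followed neither (0.01 with Slco2a1, -0.30 with Ptgs1). These sums share libraries and depth, so the coefficients are descriptions. The windows are chr9:103008237-103008486, chr2:36230176-36230425 and, for the nearer of the RefSeq starts of Tbxa2r, chr10:81328453-81328702. Capitals mark the letters TATAAA and GGGCGG.
Slco2a1: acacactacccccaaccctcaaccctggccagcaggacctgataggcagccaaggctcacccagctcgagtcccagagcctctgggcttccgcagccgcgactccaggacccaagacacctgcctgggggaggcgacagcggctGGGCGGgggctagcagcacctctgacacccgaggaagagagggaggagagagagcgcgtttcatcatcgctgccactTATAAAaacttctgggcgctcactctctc
Ptgs1: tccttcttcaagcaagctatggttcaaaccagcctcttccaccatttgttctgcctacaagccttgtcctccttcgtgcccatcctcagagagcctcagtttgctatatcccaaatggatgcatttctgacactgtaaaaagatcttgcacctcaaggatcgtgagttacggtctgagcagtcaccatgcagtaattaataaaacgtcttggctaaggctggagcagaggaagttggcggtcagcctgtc
Tbxa2r: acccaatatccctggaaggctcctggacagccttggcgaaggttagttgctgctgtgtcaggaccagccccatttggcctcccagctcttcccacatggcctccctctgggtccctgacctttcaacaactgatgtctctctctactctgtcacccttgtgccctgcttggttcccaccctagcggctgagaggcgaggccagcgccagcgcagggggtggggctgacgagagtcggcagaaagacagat
The window of Slco2a1 holds TATAAA at -29 to -24 and GGGCGG at -106 to -101 from its RefSeq start, which lies 19775 bases inside the GENCODE gene. Both strands were searched for these letters and for the E-box CACGTG, the AP-1 site TGANTCA and the cAMP response element TGACGTCA, and the windows of Ptgs1 and Tbxa2r held none of them. Over 32851 mouse windows of the same length, 12.4% hold TATAAA, 32.7% GGGCGG, 6.02% the E-box, 6.75% the AP-1 site and 1.55% the cAMP response element, and no motif of the set contains another. GGGCGG was also at -170 to -165 of Ptgs2 and, on the minus strand, at -50 to -45 of Hpgd.

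Of the members, 4 were abundant enough for the tests, and the order of endothelial types was not the same for Slco2a1, Ptgs1 and Tbxa2r. Of the 5 types, Slco2a1 and Ptgs1 were highest in Igfbp5/Crispld1 cells and low in arterial and type R cells, whereas Tbxa2r was high in metaphyseal and arterial cells and lowest in sinusoidal cells. Some single clusters exceeded the Igfbp5/Crispld1 cells in pooled, unscaled CPM. For Slco2a1 these were metaphyseal cluster 8 in each group but the aged one (172 against 211 CPM) and unnamed cluster 11 in the juvenile, adult and PTH groups. Cluster 11 had a median of only 1209 UMIs per cell, with Gm10800, Gm10801, Hba-a2 and Hba-a1 among its leading genes. For Ptgs1 they were unnamed cluster 12 in each group (mean of 342.6 CPM over libraries), sinusoidal cluster 7 in each group but alendronate, clusters 8 and 11 in the adult and PTH groups, and, in the alendronate group, clusters 13 and 17. Cluster 7 was shallow, with a median of 1431 UMIs per cell and mt-Nd3, mt-Nd5, mt-Nd4 and mt-Nd2 among its leading genes. Hpgd was sparse throughout, and Ptgs2 and Ptgis were nearly absent from all 5 types. All levels are in CPM of the summed UMIs after edgeR's TMM scaling, and levels are compared between types for a gene, never between genes.

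Slco2a1, the prostaglandin carrier, spanned 171, 199.6 and 225 CPM (lowest, median and highest of 10 libraries) in Igfbp5/Crispld1 cells. It spanned 50.9, 115 and 195 CPM in mpEC-like and 86.1, 109 and 131 CPM in bmEC-like cells. In aEC-like cells the same values were 18.1, 28.9 and 75.9 CPM, and in rEC-like cells 0, 13.2 and 32.4 CPM. In absolute CPM the spread between libraries was thus widest in metaphyseal cells, where it followed the groups. Relative to the mean it was wider in aEC-like and rEC-like cells, and narrow in Igfbp5/Crispld1 cells. Means ± SD (n = 10) were 199.7 ± 15.8 in Igfbp5/Crispld1, 123 ± 48.6 in mpEC-like, 109 ± 15.1 in bmEC-like, 36.1 ± 19.7 in aEC-like and 14.0 ± 9.90 CPM in rEC-like cells. In an exact two-sided paired permutation test over libraries, adjusted over 24 neighbour pairs of all members, each step of this order passed (adjusted p = 0.00781 for Igfbp5/Crispld1 over mpEC-like, for bmEC-like over aEC-like and for aEC-like over rEC-like) except that of mpEC-like and bmEC-like cells (0.861). This test, here and below, takes the 10 libraries as independent. With the 5 groups as units, too few sign flips exist for any step to reach an adjusted p under 0.05.

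Ptgs1, the constitutive cyclooxygenase, was 154, 176 and 208 CPM in Igfbp5/Crispld1 cells and 138, 149 and 189.7 CPM in bmEC-like cells. Metaphyseal cells followed with 84.9, 111 and 156 CPM. Type R cells had 17.8, 45.3 and 75.5 CPM and arterial cells 19.5, 36.1 and 42.0 CPM, so that neither range reached that of the sinusoidal cells. Every step in this order passed the same exact permutation test, with adjusted p = 0.00781 for Igfbp5/Crispld1 over bmEC-like, 0.0201 for bmEC-like over mpEC-like, 0.00781 for mpEC-like over rEC-like and 0.0293 for rEC-like over aEC-like cells.

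Tbxa2r, the thromboxane receptor, had a different order of types. It was 42.1, 109 and 165 CPM in mpEC-like and 60.03, 97.9 and 154 CPM in aEC-like cells. Igfbp5/Crispld1 cells had 8.17, 38.0 and 55.2 CPM, rEC-like cells 8.16, 24.1 and 28.1 CPM and bmEC-like cells 2.58, 11.8 and 21.3 CPM. Metaphyseal and arterial levels did not pass the test against each other (exact permutation test, adjusted p = 0.895), nor did Igfbp5/Crispld1 and rEC-like levels (0.332). Arterial cells exceeded Igfbp5/Crispld1 cells (0.00781), and rEC-like cells exceeded bmEC-like cells (0.0365).

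**Figure D1:**
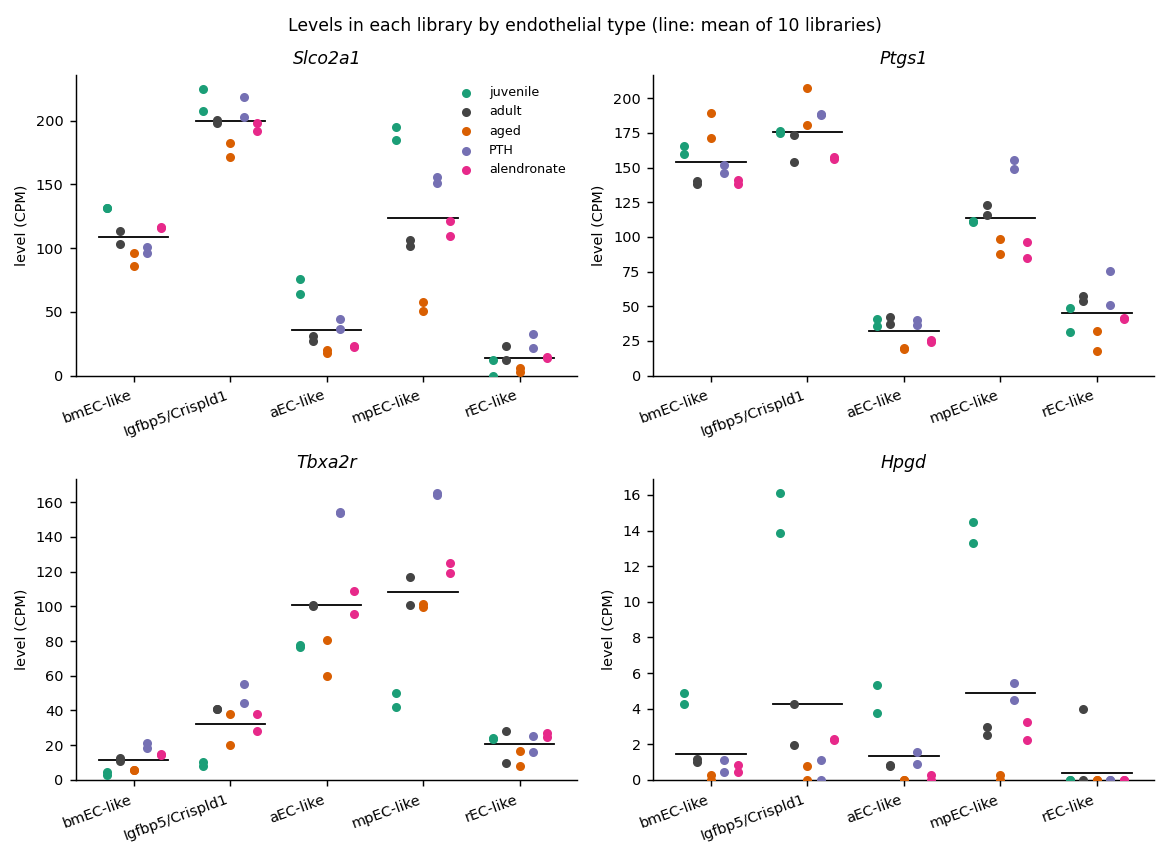
Levels of Slco2a1, Ptgs1, Tbxa2r and Hpgd in CPM (vertical axes, each with its own range from 0) in the 5 endothelial types, with 1 point per library coloured by group and a line at the mean of 10 libraries. Slco2a1 and Ptgs1 stand highest in Igfbp5/Crispld1 cells (means 199.7 and 176 CPM), and Tbxa2r in mpEC-like and aEC-like cells (108 and 101 CPM).

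Against the mean of the other types, 15 of 20 tests of the 4 members passed (edgeR quasi-likelihood test with library as a block, adjusted p below 0.05 with a log2 change beyond 1 either way), 8 higher and 7 lower. In Igfbp5/Crispld1 cells 3 of 4 passed, where 8.87% of all genes tested did, with Slco2a1 higher by 2.02 ± 0.11 (log2, SE; adjusted p = 5.35e-22), Hpgd by 1.47 ± 0.27 and Ptgs1 by 1.348 ± 0.08. In mpEC-like cells 3 of 4 passed against 5.8% of all genes, with Tbxa2r at 1.92 ± 0.09 (2.38e-23), Hpgd at 1.72 ± 0.23 and Slco2a1 at 1.08 ± 0.11. Sinusoidal cells had 2 of 4 members past both limits against 13.4%, namely Ptgs1 at 1.13 ± 0.08 (1.95e-18) and Tbxa2r at -2.21 ± 0.13 (4.31e-21), while Slco2a1 at 0.94 ± 0.11 stayed under the fold limit. Slco2a1 passed there at clustering resolutions 0.5 (1.93) and 0.3 (1.88), without integration (1.75), with types from marker UMIs (1.60) and without doublets (1.07). At resolution 0.5 no Igfbp5/Crispld1 cluster formed, so the other types no longer included the one with the highest Slco2a1, and the comparison is not the same. Slco2a1 also passed without juvenile library 2, PTH library 1 or PTH library 2 (each 1.01). In aEC-like cells 3 of 4 passed against 10.7%, with Tbxa2r higher by 1.77 ± 0.10 and Ptgs1 and Slco2a1 at -1.78 ± 0.10 and -1.26 ± 0.14. All 4 were lower in rEC-like cells, where 16.3% of genes passed, from Slco2a1 at -2.79 ± 0.22 to Tbxa2r at -1.21 ± 0.18. The Ptgs1 value there (-1.23) was short of the fold limit at clustering resolutions 0.3 and 0.5 and with types from marker UMIs (-0.19), and for Hpgd (-2.02 ± 0.74, 0.0178) only 2 UMIs were found there and the call was lost without PTH library 2 (-1.66) or either alendronate library (-1.82 and -1.75). The median log2 fold change of the 4 members was 1.41 in Igfbp5/Crispld1 cells and 1.40 in mpEC-like cells, beside -0.02 and 0.03 over all genes tested.

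The share of cells with a UMI of a gene depends on depth, so each cell was thinned to 1000 UMIs and set beside blood-lineage cells that had been left in the sort and carry free RNA. A UMI of Slco2a1 was found in 17.3% ± 1.31 (SD, n = 10) of Igfbp5/Crispld1, 10.7% of mpEC-like, 9.45% of bmEC-like, 3.28% of aEC-like and 1.16% of rEC-like cells, beside 2.36% of erythroid and 0.957% of haematopoietic cells. The rEC-like share lay within that background. For Ptgs1 the shares were 16.1% in Igfbp5/Crispld1, 13.7% in bmEC-like, 10.9% in mpEC-like, 4.34% in rEC-like and 3.00% in aEC-like cells, beside 2.02% and 3.96%. The last pair lay above the erythroid share and about the haematopoietic one. For Tbxa2r they were 10.4% in mpEC-like, 8.63% in aEC-like, 3.21% in Igfbp5/Crispld1, 2.02% in rEC-like and 1.098% in bmEC-like cells, beside 0.723% and 1.72%, so that the sinusoidal share lay between those of the blood-lineage cells. The haematopoietic cells are no clean background for Ptgs1 and Tbxa2r, because 923 of the 1034 were in a cluster that also carried the 6 megakaryocyte genes, cells known to express both. Before thinning, a UMI of Slco2a1 was in 51.9% of Igfbp5/Crispld1 cells, 1 of Ptgs1 in 49.9% of them and 1 of Tbxa2r in 33.1% of mpEC-like cells, against 11.2%, 8.55% and 3.53% of erythroid cells and 6.22%, 19.3% and 9.71% of haematopoietic cells. Median depths were 4166 UMIs per Igfbp5/Crispld1, 4032.5 per mpEC-like, 3698 per bmEC-like, 3304 per aEC-like and 2077 per rEC-like cell, and 6205 and 8647 in the erythroid and haematopoietic cells.

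Hpgd, which inactivates prostaglandins, gave 433 UMIs in the 5 types, 203 of them in mpEC-like and 107 in Igfbp5/Crispld1 cells. Means were 4.90 ± 5.02 CPM in mpEC-like, 4.26 ± 5.81 in Igfbp5/Crispld1, 1.44 ± 1.69 in bmEC-like, 1.353 ± 1.80 in aEC-like and 0.396 ± 1.25 CPM in rEC-like cells. The juvenile libraries were the highest group in the first 4 types, and the only 2 UMIs of rEC-like cells came from 1 adult library. No neighbouring pair of types passed the exact permutation test. After thinning, at most 0.431% of the cells of these 5 types had a UMI, beside 0.976% (mean of 8 libraries) of proliferating cells (pEC-like, 578 in all, led by Top2a and Birc5, not among the types tested), 0.0669% of erythroid but 1.504% of haematopoietic cells.

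Ptgs2, the inducible cyclooxygenase, had 28 UMIs in all 38749 cells of the 5 types. Of these, 20 came from 3 aEC-like cells of aged library 1, and 18 of those from 1 cell. None of 4285 Igfbp5/Crispld1 and 3077 rEC-like cells had a UMI, which allows shares of up to 0.0700% and 0.0975% (3 counts, counting error only). These limit the share of cells with a UMI at this depth, not the share that expresses the gene. In the haematopoietic cells of the same libraries, 53 of 1034 had 182 UMIs of Ptgs2, of which 75 and 68 came from the 2 aged libraries, which stand apart, and 1 to 18 from each of 5 others, and the juvenile libraries and PTH library 1 gave none. Ptgis, prostacyclin synthase, had 49 UMIs in the 5 types, 31 of them in 30 of 8484 mpEC-like cells and 13 in 11 of 7420 aEC-like cells. By contrast, 74 of 517 mesenchymal cells left in the sort held 154 UMIs of Ptgis. Neither gene passed the filter on low counts, and without that filter both were called in aEC-like cells (Ptgs2 at 2.56 and Ptgis at 1.47) and Ptgis also in mpEC-like (2.00) and bmEC-like cells (-2.22). The Ptgs2 value rests on the 3 cells named above. The summed level of 6 mesenchymal markers was 75.0 to 456 CPM in mpEC-like, 1574 to 2497 CPM in aEC-like and 944 to 2311 CPM in rEC-like cells. The rEC-like cells held 1 UMI of Ptgis. The list includes Cxcl12, which leads 2 arterial clusters. The part of mesenchymal RNA in the Ptgis counts was not tested.

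**Figure D2:**
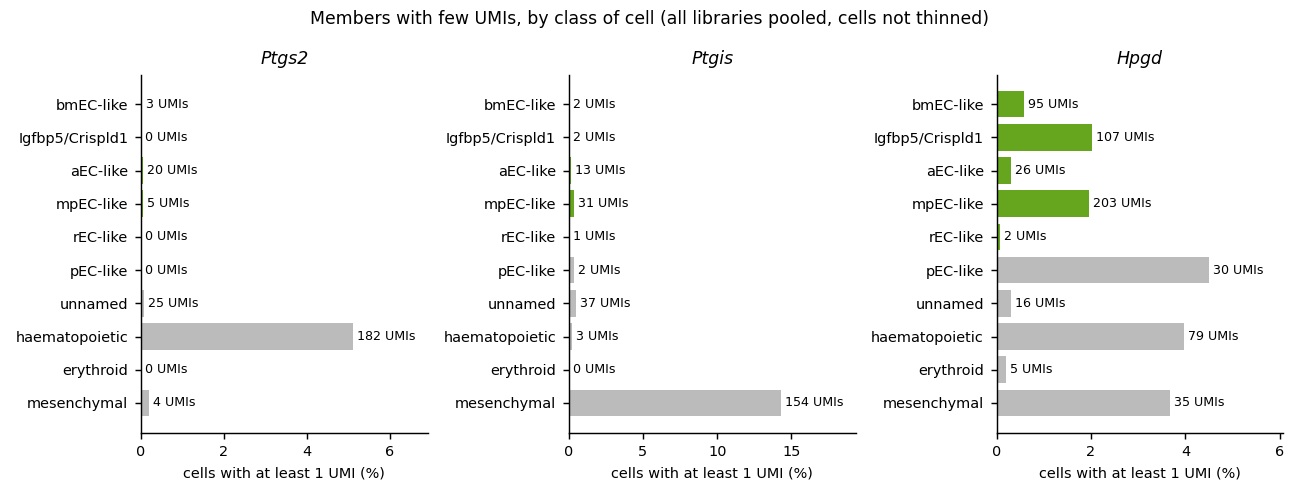
Share of cells with at least 1 UMI (horizontal bars from 0, in percent of cells, not thinned) of Ptgs2, Ptgis and Hpgd in each class of cell over all libraries, with the number of UMIs written beside each bar. Ptgs2 has 182 UMIs in haematopoietic cells (5.13% of cells) and Ptgis 154 in mesenchymal cells (14.3%), and no named endothelial type has more than 20 UMIs of Ptgs2 or 31 of Ptgis, beside 25 and 37 in unnamed endothelial cells.

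The genes whose levels were most like each member over the 50 sums, among 6595 genes with a mean of at least 20 CPM, were named by Pearson's r of log2(CPM + 1). For Slco2a1 they were Oaf, Gatm and Tfpi2 (each 0.94). Rnase4 and Gpr97 (0.93) and Aebp1 (0.92) were closest to Ptgs1, and Endod1 and Cald1 (0.86) and Anp32a (0.83) to Tbxa2r. Stk25 (0.83), Eif4e2 (0.82) and Eif2s2 (0.80) were closest to Hpgd, whereas the nearest genes to Ptgis (Psmd12, 0.59) and Ptgs2 (Numb, 0.47) were much less alike.

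To see how the members differ with age, juvenile libraries were compared with adult ones within each type. Slco2a1 and Hpgd were higher in 3 and 4 juvenile types and Tbxa2r was lower in 3, with 11 of 19 tests passing (8 higher, 3 lower) at an adjusted p under 0.05, the only limit set in comparisons of groups. Those counts include Hpgd, which passed the filter on low counts only through the juvenile libraries in bmEC-like, Igfbp5/Crispld1 and aEC-like cells. In mpEC-like cells Slco2a1 was 185 and 195 CPM in the juvenile and 102 and 106 CPM in the adult libraries. That is a log2 fold change of 0.87 ± 0.08 (SE; adjusted p = 2.26e-12). In aEC-like cells it was 64.0 and 75.9 against 26.8 and 31.0 CPM (1.28 ± 0.17, 9.56e-07). In bmEC-like cells 131 and 131 stood against 104 and 114 CPM (0.27 ± 0.06, 6.10e-04), a call that was lost without adult library 2 (0.18). In Igfbp5/Crispld1 cells 208 and 225 CPM stood against 198 and 200.9 CPM and the difference did not pass (0.12 ± 0.08, adjusted p = 0.299), and in rEC-like cells 1 UMI stood against 16 (-1.81 ± 1.32, adjusted p = 0.567).

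Tbxa2r was lower in 3 juvenile types. It was 8.17 and 10.5 CPM in juvenile and 40.6 and 41.1 CPM in adult Igfbp5/Crispld1 cells (-2.13 ± 0.22, adjusted p = 9.12e-11). In bmEC-like cells the values were 2.58 and 4.52 against 11.1 and 12.5 CPM (-1.73 ± 0.23, 8.94e-09). In mpEC-like cells they were 42.1 and 50.3 against 101 and 117 CPM (-1.23 ± 0.10, 1.33e-13). Arterial cells had 76.5 and 77.7 CPM against 100.2 and 100.6 CPM, short of the threshold (-0.38 ± 0.14, adjusted p = 0.0622). That difference passed without aged library 1 or 2 (0.0437 and 0.0444) and within arterial cluster 10 (111 and 102 against 161 and 178 CPM, -0.67 ± 0.18, 0.00791, where 9.58% of all genes passed), and not within cluster 2 (-0.29 ± 0.22, 0.489). The rEC-like cells, with few juvenile cells, had 23.7 and 24.4 against 9.91 and 28.1 CPM (0.39 ± 0.80, adjusted p = 0.882).

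Hpgd was higher in the juvenile libraries of each type where it was tested. In bmEC-like, Igfbp5/Crispld1 and aEC-like cells only the juvenile libraries lifted it past the filter on low counts. Its calls there rest on the group where it is high and are descriptions. In mpEC-like cells 103 UMIs in the juvenile libraries (13.3 and 14.5 CPM) stood against 21 in the adult ones (2.55 and 2.96 CPM), a log2 fold change of 2.32 ± 0.32 (adjusted p = 1.14e-07). In Igfbp5/Crispld1 cells 82 stood against 14 UMIs (2.30 ± 0.39, 7.71e-06). In bmEC-like cells 64 stood against 15 UMIs (2.03 ± 0.38, 2.39e-05), and in aEC-like cells 10 against 4 UMIs (2.42 ± 0.83, 0.0432). The arterial call was kept in 5 of 19 alternatives and was lost when any 1 library was left out (2.15 to 2.66). Ptgs1 differed little, with 159.99 and 165 against 139 and 140.0 CPM in bmEC-like cells (0.22 ± 0.06, 0.00200) and no call elsewhere.

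Of the members tested, 4 of 4 passed in juvenile bmEC-like cells where 35.5% of all genes did. In mpEC-like cells it was 3 of 4 against 26.7%, in Igfbp5/Crispld1 cells 2 of 4 against 22.4%, in aEC-like cells 2 of 4 against 16% and in rEC-like cells none of 3 against 3.01%. The bmEC-like, Igfbp5/Crispld1 and aEC-like counts include Hpgd, which its juvenile level alone brought into the test. The median log2 fold change of the members was 0.61 in aEC-like, 0.38 in mpEC-like, 0.25 in bmEC-like, 0.11 in Igfbp5/Crispld1 and -0.54 in rEC-like cells, beside -0.04, 0.01, -0.00, 0.00 and -0.16 over all genes. Sums of markers of other cell types also differed in the juvenile group. The summed level of 6 megakaryocyte and platelet genes, cells known to carry Ptgs1 and Tbxa2r, was 215 to 245 CPM in juvenile against 87.5 to 96.5 CPM in adult bmEC-like cells, and 94.9 to 113 against 56.5 to 62.9 CPM in mpEC-like cells with up to 2 of the 6 at 0 in a library. Over all bmEC-like sums Pf4 reached 216 CPM, Itga2b 24.0, Ppbp 9.81, Gp1ba 1.89, Gp9 1.25 and Treml1 0.627 CPM, so that the sum is mostly that of Pf4. The 12 immediate early genes, which rise during dissociation, summed to 1223 to 1314 against 2341 to 2362 CPM in mpEC-like cells, and 9 haematopoietic markers to 7.19 to 9.75 against 40.0 to 49.3 CPM. Their part in these differences was not tested.

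Between adult and aged libraries 16 of 19 tests passed, 14 of them lower in aged cells and both higher ones for Ptgs1, but a majority of all genes passed in several types. The shares of all genes were 64.9% in bmEC-like (4 of 4 members), 54.2% in Igfbp5/Crispld1 (3 of 4), 59.5% in aEC-like (4 of 4), 62.2% in mpEC-like (3 of 4) and 46.6% in rEC-like cells (2 of 3). The median log2 fold change of the members was -0.62 in bmEC-like, -0.33 in Igfbp5/Crispld1, -0.81 in aEC-like, -0.65 in mpEC-like cells, beside -0.02, -0.09, -0.07 and -0.06 over all genes, and it was -1.16 in rEC-like cells beside -0.14. Old age, reagent kit and counting cannot be told apart here, and scaling matters in this contrast: with library totals alone in place of TMM factors, 13 tests passed (3 higher and 10 lower), the median of all genes was 0.07 to 0.42 in the 5 types, and 63.6% in place of 45.9% of all calls were higher in aged cells. In aged metaphyseal cells Slco2a1 was 50.9 and 57.7 against 102 and 106 CPM in adult cells (-0.93 ± 0.10, adjusted p = 4.42e-11). It was 18.1 and 19.7 against 26.8 and 31.0 CPM in aEC-like cells (-0.60 ± 0.17, 0.00323), a call lost without adult library 2 (-0.44). Within arterial cluster 2 alone it passed, with 4.47 and 5.65 against 24.4 and 25.7 CPM (-2.29 ± 0.38, 5.86e-06), and within cluster 10 it did not (-0.57, 0.115). Type R cells had 12 UMIs in the aged and 16 in the adult libraries (-1.91 ± 0.60, 0.00760), which is a ratio of 0.260 with a 95% counting interval of 0.112 to 0.585 and was lost without adult library 2 (-1.30) or aged library 2 (-1.51). This type R call was kept in 20 of 23 alternatives, with values from -2.29 to -0.81. The share of type R cells with a UMI of Slco2a1 lay within that of blood-lineage cells, and the part of free RNA was not tested. In bmEC-like cells 86.1 and 96.4 stood against 104 and 114 CPM (-0.26 ± 0.08, 0.00348), but no direction can be given, since the value was -0.01 with RLE scaling and 0.17 ± 0.08 (edgeR, adjusted p = 0.0422) with library totals alone. That call was kept in 9 of 28 alternatives and lost when any library but adult 2 and aged 2 was left out (-0.03 to -0.15). Igfbp5/Crispld1 cells did not pass (171 and 182 against 198 and 200.9 CPM, -0.17 ± 0.09, adjusted p = 0.0993).

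Ptgs1 moved in opposite directions in aged types. In bmEC-like cells it was 172 and 189.7 CPM against 139 and 140.0 CPM in the adult libraries (0.38 ± 0.06, adjusted p = 1.14e-06), and in Igfbp5/Crispld1 cells 181 and 208 against 154 and 173 CPM (0.25 ± 0.09, 0.0208). In aEC-like cells it fell to 19.5 and 20.01 from 37.4 and 42.0 CPM (-1.01 ± 0.15, 8.98e-07). It was 87.9 and 98.5 against 116 and 123 CPM in mpEC-like cells (-0.36 ± 0.09, 4.22e-04) and 17.8 and 32.1 against 53.9 and 57.5 CPM in rEC-like cells (-1.16 ± 0.29, 8.10e-04). The groups did not overlap in these types, but groups of 2 libraries often do not. The share of all genes without overlap was not counted. Without aged library 1 the Igfbp5/Crispld1 and rEC-like calls were lost (0.26 and -0.62), and without adult library 1 those in Igfbp5/Crispld1 (0.22) and mpEC-like cells (-0.24). The rEC-like call was kept in 21 of 23 alternatives, with values from -1.64 to -0.15. The mpEC-like call was also lost with library totals alone (-0.12). After thinning, 1.88% and 2.01% of aged and 3.67% and 3.62% of adult arterial cells had a UMI of Ptgs1. These shares lay about those of erythroid (2.02%) and haematopoietic cells (3.96%). Of the endothelial cells, 19.7% and 18.9% were bmEC-like in aged and 43.0% and 44.1% in adult libraries. The part of free RNA in the arterial difference was not tested.

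Tbxa2r fell in aged bmEC-like cells to 5.94 and 5.97 CPM from 11.1 and 12.5 CPM (-0.99 ± 0.24, adjusted p = 3.98e-04) and in aEC-like cells to 60.03 and 80.5 from 100.2 and 100.6 CPM (-0.51 ± 0.11, 1.69e-04), the latter lost without aged library 1 (-0.24) and within arterial cluster 10 alone. In Igfbp5/Crispld1 cells 20.3 and 37.9 stood against 40.6 and 41.1 CPM (-0.49 ± 0.21, 0.0436), a call kept in 4 of 19 alternatives and lost when any library but aged 1 was left out (-0.14 to -0.43). In mpEC-like cells 99.8 and 101 stood against 101 and 117 CPM and did not pass (-0.12 ± 0.09, 0.255). Hpgd was nearly absent from aged cells. Adult libraries held 21 UMIs in mpEC-like, 15 in bmEC-like and 14 in Igfbp5/Crispld1 cells and the aged libraries 1 in each, which are ratios of 0.0562 (95% counting interval 0.00136 to 0.350), 0.129 (0.00307 to 0.840) and 0.132 (0.00312 to 0.866) after scaling. In aEC-like cells 4 adult UMIs stood against 0, with a counting interval of the ratio of 0 to 0.990. All 4 passed the test, with adjusted p from 1.78e-04 in mpEC-like to 0.0288 in Igfbp5/Crispld1 cells. The mpEC-like call held when each library was left out, the bmEC-like call was lost without adult library 2 or aged library 2, the Igfbp5/Crispld1 call without adult library 2 or aged library 1, and the aEC-like call without any of the 4 adult and aged libraries. With library totals alone the Igfbp5/Crispld1 call was also lost (-2.40), and it was kept in 14 of 19 alternatives. The 12 immediate early genes summed to 1019 to 1037 CPM in aged against 3497 to 3593 CPM in adult bmEC-like cells, and the 6 megakaryocyte genes to 24.5 to 34.0 against 87.5 to 96.5 CPM with up to 3 at 0, and their part was not tested.

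**Figure D3:**
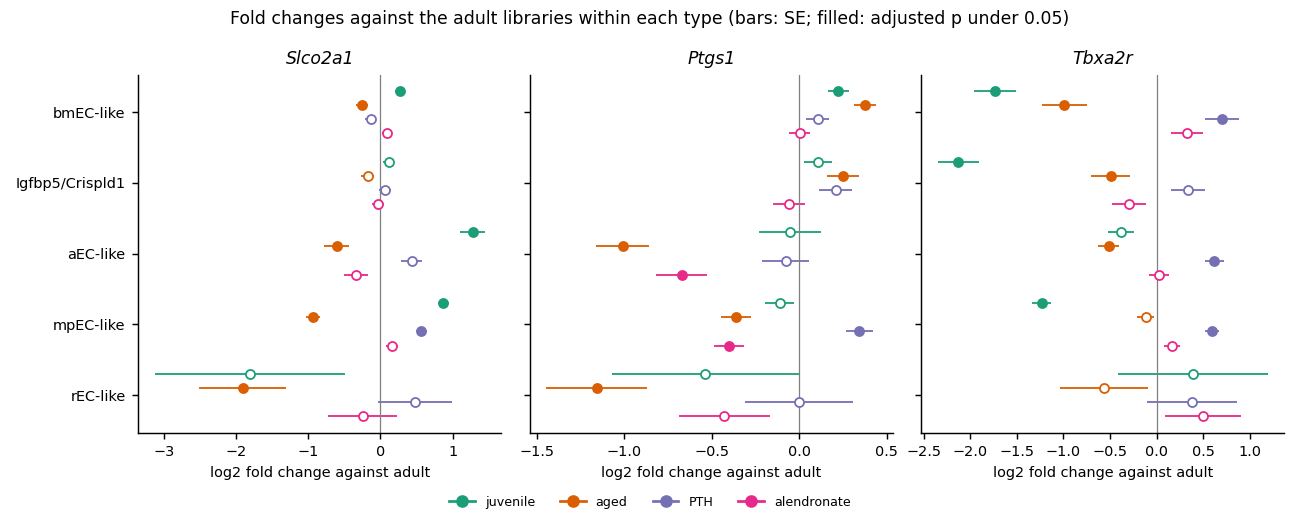
Log2 fold change against adult (horizontal axes, with bars of 1 SE) of Slco2a1, Ptgs1 and Tbxa2r in each endothelial type for the juvenile, aged, PTH and alendronate libraries by colour, filled where the adjusted p was under 0.05. Slco2a1 in mpEC-like cells lies at 0.87 in juvenile, -0.93 in aged and 0.57 in PTH libraries, and Tbxa2r in the same cells at -1.23 in juvenile and 0.60 in PTH libraries.

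PTH, given intermittently, stimulates bone formation. After PTH 5 of 19 tests passed, all of them higher, and 3 were in mpEC-like cells. Tbxa2r was 164 and 165 CPM in the PTH and 101 and 117 CPM in the adult mpEC-like cells (0.60 ± 0.08, adjusted p = 9.24e-08). Slco2a1 was 151 and 156 against 102 and 106 CPM (0.57 ± 0.08, 2.45e-07), and Ptgs1 149 and 156 against 116 and 123 CPM (0.34 ± 0.08, 8.99e-04). Of all genes 13.8% passed in these cells. With types from marker UMIs the Tbxa2r value was 0.20 and no longer passed, nor did that of Ptgs1 (0.40). In aEC-like cells 1 of 4 members passed against 7.96% of genes, namely Tbxa2r with 154 and 154 against 100.2 and 100.6 CPM (0.62 ± 0.10, 4.29e-05; 0.39 and no longer past the threshold with types from marker UMIs), whereas Slco2a1 did not, at 36.3 and 44.2 against 26.8 and 31.0 CPM (0.43 ± 0.15, 0.0757). In bmEC-like cells 1 of 4 passed against 8.04%, again Tbxa2r, with 18.3 and 21.3 against 11.1 and 12.5 CPM (0.70 ± 0.18, 0.00696), and the call was lost without either PTH library (0.62 without library 1 and 0.87 without library 2) and without adult library 2 (0.63). It was kept in 16 of 26 alternatives, with values from 0.18 to 0.94. No member passed in Igfbp5/Crispld1 (of 4, against 6.3%) or rEC-like cells (of 3, against 2.76%).

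The median log2 fold change of the 4 members after PTH was 0.58 in mpEC-like cells, beside 0.003 over all genes. Most sums of markers of other cell types were lower in PTH than in adult mpEC-like cells, with megakaryocyte genes at 36.7 to 46.2 against 56.5 to 62.9 CPM, haematopoietic genes at 23.5 to 26.2 against 40.0 to 49.3 CPM and immediate early genes at 1930 to 2087 against 2341 to 2362 CPM. Haemoglobin and other erythroid genes summed to 38.0 to 72.9 against 193 to 256 CPM. Hpgd was at 4.47 and 5.42 against 2.55 and 2.96 CPM (0.89 ± 0.36, adjusted p = 0.101).

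After alendronate 2 of 19 tests passed, both for lower Ptgs1. In aEC-like cells it was 24.4 and 25.5 against 37.4 and 42.0 CPM in adult libraries (-0.67 ± 0.15, adjusted p = 0.00216), and in mpEC-like cells 84.9 and 96.1 against 116 and 123 CPM (-0.40 ± 0.09, 0.00111). The first was lost without adult library 1 (-0.60) and within clusters 2 and 10 taken singly, and the second without alendronate library 2 (-0.31) and within clusters 3 and 8. Each was 1 of 4 members, where 8.93% and 10.8% of all genes passed. No member passed in bmEC-like (of 4, against 16.3%), Igfbp5/Crispld1 (of 4, against 8.06%) or rEC-like cells (of 3, against 2.65%). Slco2a1 in mpEC-like cells was 109.6 and 121 CPM (0.15 ± 0.08, 0.2801) and Tbxa2r 119 and 125 CPM (0.16 ± 0.09, 0.256). Erythroid genes reached 2026 CPM in 1 alendronate aEC-like sum against 170 to 253 CPM in adults, and the immediate early genes 3512 to 3742 against 2582 to 2705 CPM, and their part in the Ptgs1 difference was not tested. After thinning, 2.11% and 2.19% of alendronate and 3.67% and 3.62% of adult arterial cells had a UMI of Ptgs1. Erythroid and haematopoietic cells had 2.02% and 3.96%, and the part of free RNA was not tested.

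Whether an effect differed between the types was tested by the interaction of type and group, and 7 of 16 tests of the members passed. For the juvenile contrast Slco2a1 (adjusted p = 1.88e-10) and Tbxa2r (6.94e-07) passed, 2 of 4 where 13% of all genes did, and Hpgd did not (0.766). For the aged contrast Ptgs1 (3.91e-14), Slco2a1 (1.38e-06) and Tbxa2r (0.0331) passed, 3 of 4 against 24.3%. For PTH it was Slco2a1 alone (6.07e-06), 1 of 4 against 6.33%, with Tbxa2r at 0.882. For alendronate it was Ptgs1 (0.00201), 1 of 4 against 4.25%.

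The metaphyseal cells were made up of clusters 3, 5 and 8, and the share of cluster 8, led by Igfbp5 and Apln, was not the same in each group (22.9% of adult, 39.0% of juvenile, 31.9% of PTH, 21.8% of alendronate and 18.3% of aged mpEC-like cells). Cluster 8 also had the most Slco2a1 of the 3, at 227 and 246 CPM in adult libraries against 72.3 and 70.0 CPM in cluster 3 and 51.2 and 52.4 CPM in cluster 5. Comparisons were therefore repeated within clusters. Slco2a1 was higher after PTH in cluster 3 (105 and 99.9 CPM, 0.51 ± 0.12, adjusted p = 0.00285) and cluster 5 (96.7 and 106 CPM, 0.99 ± 0.16, 6.42e-06) but did not pass in cluster 8 (256 and 256 CPM, 0.12 ± 0.11, 0.737). Tbxa2r was higher after PTH in all 3, at 180 and 177 against 122 and 105 CPM in cluster 3 (0.65 ± 0.10, 4.16e-06), 122 and 115 against 84.2 and 75.2 CPM in cluster 5 (0.56 ± 0.14, 0.00657) and 199 and 197 against 154 and 132 CPM in cluster 8 (0.47 ± 0.13, 0.0179). Members passed in 3 of 4 tests in cluster 3, 2 of 3 in cluster 5 and 1 of 4 in cluster 8 after PTH, where 8.93%, 6.45% and 3.95% of all genes did. Ptgs1 passed after PTH in cluster 3 alone (152 and 137 against 112 and 107 CPM, 0.37 ± 0.11, 0.0165), with 0.10 ± 0.14 (0.790) in cluster 5 and 0.24 ± 0.12 (0.3596) in cluster 8, where its adult level was highest (193 and 169.8 CPM).

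Between juvenile and adult libraries, Slco2a1 was higher in cluster 3 (138 and 135 CPM, 0.94 ± 0.13, adjusted p = 1.24e-07) and cluster 5 (116 and 113 CPM, 1.14 ± 0.16, 2.39e-07), with 280.3 and 304 CPM in cluster 8 short of the threshold (0.30 ± 0.11, 0.0633). Tbxa2r was lower in all 3, most in cluster 8, with 44.8 and 36.8 against 154 and 132 CPM (-1.80 ± 0.17, 4.18e-13). In all, 3 of 4 members passed in cluster 3 (13.7% of genes), 2 of 3 in cluster 5 (13.9%) and 2 of 4 in cluster 8 (12.8%). The counts of clusters 3 and 8 include Hpgd. It was 19.1 and 9.35 against 0.560 and 1.22 CPM in cluster 3. In cluster 8 it was 18.1 and 19.8 against 6.46 and 10.1 CPM. Both Hpgd calls rest on the group where it is high and are descriptions. Of the arterial clusters, cluster 2 showed higher Tbxa2r after PTH (111 and 109 against 76.7 and 69.6 CPM, 0.58 ± 0.15, 0.0144) as 1 of 3 members against 4.01% of genes. In arterial cluster 10, Slco2a1 (73.5 and 55.3 against 36.2 and 31.2 CPM, 0.86 ± 0.23, 0.0114) and Tbxa2r passed after PTH, 2 of 3 members against 5.57%. The juvenile difference of Slco2a1 in aEC-like cells was 1.65 ± 0.24 (1.18e-06) within cluster 10, with 88.4 and 126 CPM, but 0.37 ± 0.34 (0.596) within cluster 2, with 21.5 and 43.0 against 24.4 and 25.7 CPM, and cluster 10 held 45.3% of juvenile and 31.7% of adult arterial cells.

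The make-up of the types also moved with the aged and alendronate groups. Of the bmEC-like cells, cluster 13 held 5.97% in adult and 27.2% in aged libraries, cluster 7 14.4% and 24.4%, cluster 6 18.6% and 4.56% and cluster 9 14.4% and 5.58%. Groups were not compared within cluster 6 or arterial clusters 14, 16 and 20. Not every group had 2 libraries with at least 20 cells of these. Within clusters 0, 7, 9, 13 and 18, where 54.8%, 48.6%, 30.3%, 50.6% and 39.6% of all genes passed, Ptgs1 was higher in aged cells of cluster 0 (198 and 162 against 130 and 126 CPM, 0.50 ± 0.09, adjusted p = 1.90e-06) and cluster 13 (202 and 185 against 106 and 143 CPM, 0.65 ± 0.16, 3.78e-04), and did not pass in clusters 7 (0.24 ± 0.19), 9 (-0.17 ± 0.22) and 18 (-0.19 ± 0.31). Slco2a1 was lower in aged cells of cluster 7 (-0.74 ± 0.23, 0.00549) and higher in those of cluster 13 (0.55 ± 0.24, 0.0498). Tbxa2r passed in cluster 0 (-0.94 ± 0.42, 0.0484) and not in clusters 9 (-2.25 ± 1.16) and 13 (-1.19 ± 0.65). The juvenile calls of Slco2a1 and Ptgs1 in bmEC-like cells passed within cluster 0 (0.29 and 0.27, where 28.6% of all genes passed) and not within the smaller clusters 7, 9, 13 and 18, although the values there were 0.20 to 0.64 for Slco2a1 and 0.09 to 0.24 for Ptgs1. Higher Tbxa2r after PTH had values of 0.66, 0.89 and 0.94 in clusters 0, 9 and 13, beside 0.70 in the whole type, and were short of the threshold (4.91%, 2.61% and 0.622% of all genes passed). Arterial cluster 10 held 31.7% of adult, 23.8% of aged and 23.7% of alendronate aEC-like cells, and cluster 16 held 8.49%, 15.6% and 6.90%. In adult libraries cluster 10 had more Ptgs1 (63.4 and 69.8 CPM) than cluster 2 (24.4 and 16.2 CPM) and more Tbxa2r (161 and 178 against 76.7 and 69.6 CPM). Between adult and aged libraries 52.2% and 44.8% of all genes passed in clusters 2 and 10, and 53.2%, 50.4% and 46.4% in clusters 3, 5 and 8. Lower Ptgs1 in aged arterial cells passed in cluster 2 (-1.91 ± 0.43, adjusted p = 3.34e-04) and cluster 10 (-1.04 ± 0.23, 1.55e-04). Lower Tbxa2r passed in cluster 2 (-0.72 ± 0.17, 7.54e-04) but not in cluster 10, with 134 and 172 against 161 and 178 CPM (-0.15 ± 0.14, 0.418). In aged metaphyseal cells, Slco2a1 was lower in clusters 3, 5 and 8 (-0.82, -1.30 and -0.64), whereas Ptgs1 was lower in clusters 3 and 5 (-0.58 and -0.45) and at 0.12 ± 0.14 (0.529) in cluster 8. After alendronate, Ptgs1 did not pass in arterial cluster 2 (-0.88 ± 0.36, 0.202) or cluster 10 (-0.65 ± 0.22, 0.0902), nor in metaphyseal clusters 3 (-0.36 ± 0.12, 0.0805) and 8 (-0.34 ± 0.14, 0.160), and passed in cluster 5 (-0.70 ± 0.17, 0.00804). Tbxa2r after alendronate was higher in cluster 3 (0.48 ± 0.11, 0.00340) and did not pass in cluster 5 (-0.08 ± 0.17, 0.888) or cluster 8 (-0.30 ± 0.15, 0.288). Of all genes 4.23% passed in cluster 3 and 4.36% in cluster 5 after alendronate.

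**Figure D4:**
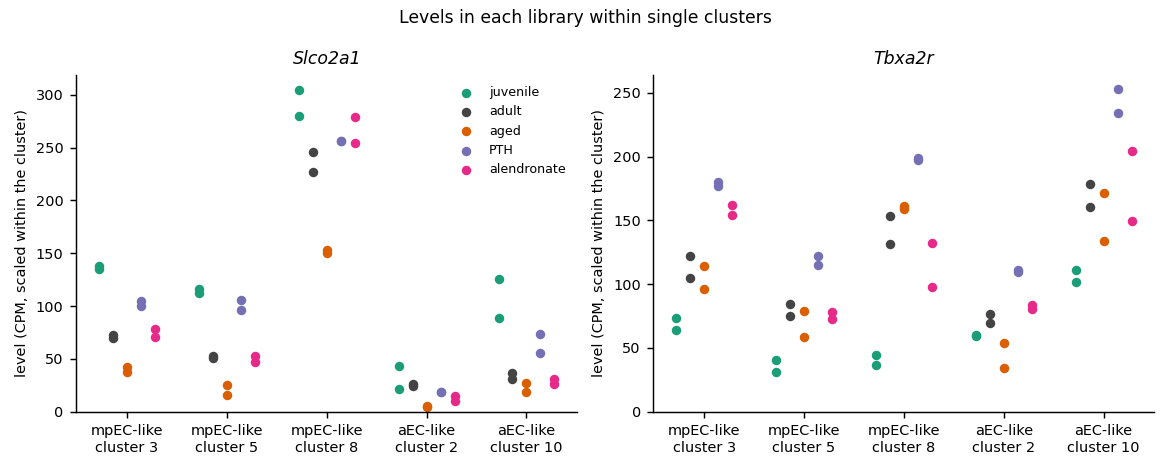
Levels of Slco2a1 and Tbxa2r in CPM (vertical axes from 0) within clusters 3, 5 and 8 of mpEC-like and clusters 2 and 10 of aEC-like cells, with 1 point per library coloured by group. Slco2a1 in cluster 5 is 96.7 and 106 CPM in the PTH against 51.2 and 52.4 CPM in the adult libraries, whereas in cluster 8 the PTH libraries (256 and 256 CPM) lie close above the adult ones (227 and 246 CPM).

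The other genes of the pathway had their own distribution. Of 30 listed genes, 27 were in the files, 16 could be tested between types and 8 passed in at least 1 type. By type, 5 of 16 passed in bmEC-like (13.4% of all genes), 4 in Igfbp5/Crispld1 (8.87%), 4 in aEC-like (10.7%), 2 in mpEC-like (5.8%) and, among rEC-like cells, 7 (16.3%). None of 1 tested gene for the release of fatty acids, 3 of 7 synthases, 1 of 4 genes for export and breakdown and all 4 tested receptors passed in at least 1 type. The share of all genes that passed in at least 1 type was not counted. It is above the share of any single type, and nothing particular to the list is read from these counts. Ptges, an inducible prostaglandin E synthase, was 53.2 ± 9.75 CPM (SD, n = 10) in bmEC-like and 22.9 ± 7.69 CPM in Igfbp5/Crispld1 cells against 5.91 ± 2.59 CPM in mpEC-like cells (bmEC-like against the other types 3.43 ± 0.12, adjusted p = 1.31e-29). Fam213b, a prostamide and prostaglandin F synthase, was 157 ± 93.5 CPM in bmEC-like cells (2.38 ± 0.07, 1.58e-32), and Tbxas1, thromboxane synthase, was at most 5.80 ± 6.33 CPM, in rEC-like cells (1.15 ± 0.26, 1.61e-04). The other tested synthases did not pass in any type, among them Ptges2, whose mean was 16.5 CPM in aEC-like and 11.5 CPM in bmEC-like cells, and Akr1b3, an aldose reductase with prostaglandin F synthase activity, at 19.7 to 24.6 CPM in the 5 types.

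The receptors split between the types. Ptger2, a receptor for prostaglandin E2, was 79.6 ± 20.5 CPM in bmEC-like and 37.4 ± 15.2 CPM in Igfbp5/Crispld1 cells, against 1.85 ± 2.24 CPM in rEC-like cells (bmEC-like 3.58 ± 0.12, adjusted p = 3.74e-30). Ptger4, another receptor for the same ligand, was 37.5 ± 21.7 CPM in rEC-like and 15.4 ± 7.08 CPM in aEC-like cells and at most 1.26 CPM in the other types (rEC-like 4.21 ± 0.16, 4.31e-28). Ptgfrn, an inhibitor of the prostaglandin F receptor, was also highest in rEC-like cells (9.99 ± 5.57 CPM, 1.93 ± 0.22, 6.57e-11), and Ptger1 was lowest there (14.7 ± 8.33 CPM, -1.02 ± 0.13, 2.93e-09). Ptgr1, which acts on the products of Hpgd, was 5.05 ± 2.53 CPM in bmEC-like cells (1.21 ± 0.18, 4.34e-08). In the related lipoxygenase branch 2 of 3 tested genes passed in at least 1 type, again with no share over all genes counted. Ltc4s, leukotriene C4 synthase, was at 475 ± 111 CPM in bmEC-like cells (2.22 ± 0.07, 1.54e-31) and Alox12 at 148 ± 45.9 CPM in aEC-like cells (1.24 ± 0.09, 2.05e-16).

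**Figure D5:**
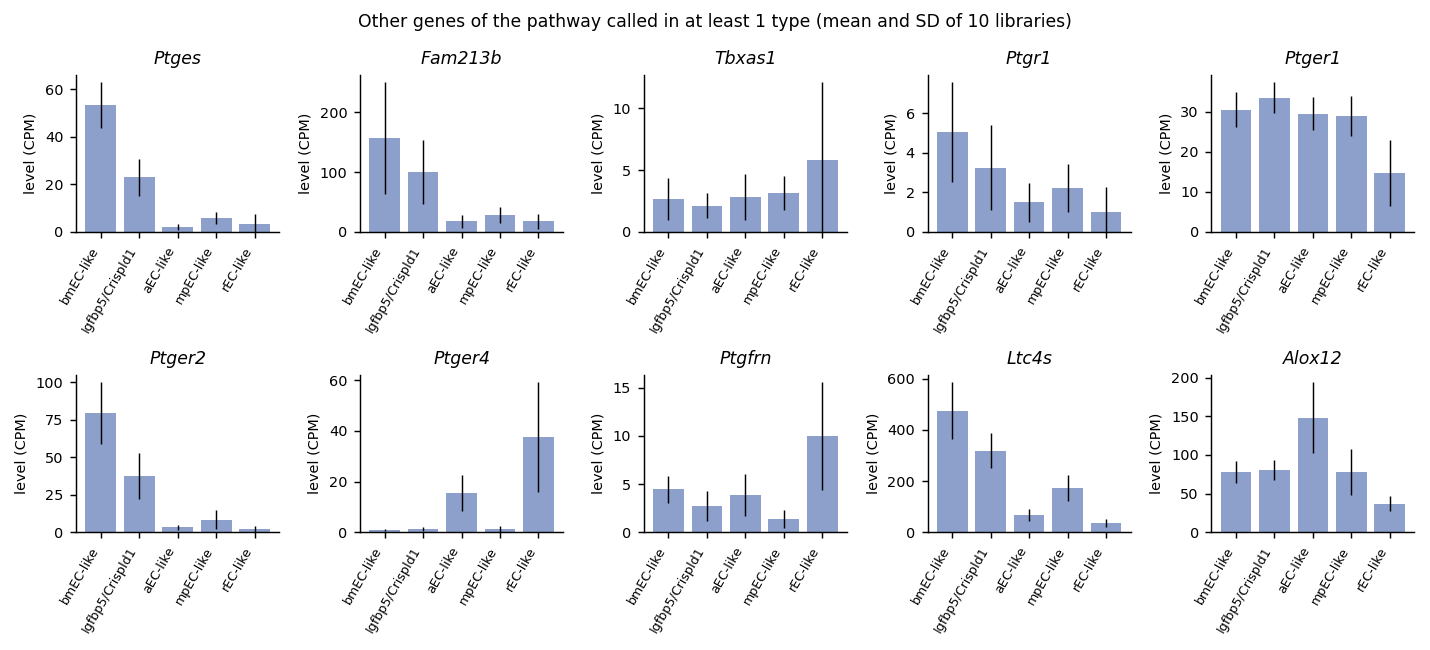
Mean level in CPM (bars from 0, with the SD of 10 libraries) in the 5 endothelial types for the 8 other pathway genes and 2 lipoxygenase genes that passed in at least 1 type, each on its own axis. Ptges, Fam213b and Ptger2 are highest in bmEC-like cells (53.2, 157 and 79.6 CPM) and Ptger4 in rEC-like cells (37.5 CPM).

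Across ages and treatments, the other pathway genes gave 71 tests a contrast. Juvenile cells had 4 higher and 14 lower, aged cells 17 higher and 28 lower, PTH cells 2 higher and 12 lower and alendronate cells 8 higher and 9 lower. Over the types, 3.01% to 35.5% of all genes passed in juvenile, 46.6% to 64.9% in aged, 2.76% to 13.8% in PTH and 2.65% to 16.3% in alendronate cells, and nothing particular to the list is read from these counts. The 3 largest juvenile changes among genes with a mean of at least 20 CPM over the types were in Fam213b, which was 90.3 ± 0.06 against 288 ± 7.67 CPM in bmEC-like (-1.67 ± 0.06, adjusted p = 2.23e-29), 11.9 ± 0.44 against 35.8 ± 8.34 CPM in aEC-like (-1.58 ± 0.29) and 66.6 ± 3.77 against 184 ± 13.1 CPM in Igfbp5/Crispld1 cells (-1.47 ± 0.09). In aged cells Fam213b was 2.23 ± 0.01 against 31.5 ± 5.24 CPM in rEC-like (-3.71 ± 0.57, 2.93e-07) and 32.8 ± 2.15 against 288 ± 7.67 CPM in bmEC-like cells (-3.13 ± 0.09, 1.20e-35), and Ptger2 was 0.400 ± 0.19 against 5.13 ± 0.66 CPM in aEC-like cells (-3.54 ± 0.67, 3.49e-05). Over the aged libraries, 3 UMIs come to 1.12 CPM in rEC-like and 0.400 CPM in aEC-like cells. The aged rEC-like and aEC-like values and their SDs thus rest on few UMIs. After PTH, Ptger2 in mpEC-like cells was 3.12 ± 0.36 against 10.3 ± 0.22 CPM (-1.67 ± 0.28, 1.63e-05), opposite in direction to the 3 members that rose there. Akr1b3 was 18.6 ± 1.82 after PTH and 23.3 ± 5.86 after alendronate against 44.4 ± 1.93 CPM in Igfbp5/Crispld1 cells (-1.21 ± 0.22, 8.68e-05 and -0.93 ± 0.19, 4.65e-04), and after alendronate 24.0 ± 5.55 against 37.8 ± 3.04 CPM in bmEC-like cells (-0.66 ± 0.12). Fam213b in aEC-like cells was 16.6 ± 1.25 after PTH and 16.9 ± 1.93 after alendronate against 35.8 ± 8.34 CPM (-1.13 ± 0.20 and -1.07 ± 0.20). The adult libraries are the same in all these comparisons.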

How the data were processed

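Raw UMI counts per gene and cell were deposited by the authors as 10 tables, 1 per library, made per the submitters' processing notes with UMI-tools 1.1.2, STAR 2.7.10a and featureCounts 2.0.3 on mm10. Cells with 500 to 6000 genes and under 25% mitochondrial UMIs were kept, and genes in at least 3 cells. Blood-lineage, mesenchymal and mural clusters were set aside, and the endothelial cells were integrated over libraries and clustered in Seurat 5.3.0 (2000 variable genes without the members, the pathway lists and cell cycle genes, 30 components). Resolution 0.8 was used in place of the planned 0.5 after the clusters had been seen, because only there did a cluster apart from the metaphyseal cells have both Igfbp5 and Crispld1 among its leading genes. Clusters were named from fixed markers and otherwise left unnamed. Doublets were kept in the main results and left out as an alternative with the caller of scanpy 1.11.5.

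UMIs were summed per type and library (at least 20 cells), scaled by TMM, filtered with filterByExpr and tested with edgeR 4.0.16 in R 4.3.3 (quasi-likelihood, Benjamini-Hochberg adjustment over all genes). Types were compared with the mean of the others with library as a block, and groups with adult within a type. Neighbouring types were compared by exact sign-flip permutation, with all flips enumerated in numpy 2.4.6. Genes of other lists were named where called between types, and for each contrast as the 3 largest called changes with a mean of at least 20 CPM over the types. The members and lists were chosen with earlier results of these data known. Counting intervals (95%) and floors (3 UMIs) cover counting error only. Alternatives were RLE scaling, DESeq2 1.42.0, no filter on low counts, other clusterings, types from marker UMIs, 50 cells per sum, TMM within each type, library totals without scaling factors and single clusters (the last 3 chosen after seeing the data), a replicate block and leaving out each library. The libraries of a group are numbered, but same-numbered libraries did not deviate together (correlations of -0.145 to 0.113 over 6624 genes), so that the numbers were not used as pairs. Libraries of a group differed beyond counting noise. Promoter windows are RefSeq sequences on GRCm38.p6, and 5 of 6 members had a window.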

Additional observations from a re-analysis of the deposited data

Results flagged for a closer look

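The effect of a group on a member differed between endothelial types in 7 of 16 tests of the interaction of type and group (edgeR, adjusted over all genes). Of all genes, 13% passed for the juvenile, 24.3% for the aged, 6.33% for the PTH and 4.25% for the alendronate contrast. For Slco2a1 the juvenile contrast (adjusted p = 1.88e-10), the aged contrast (1.38e-06) and the PTH contrast (6.07e-06) passed, with log2 fold changes after PTH from -0.13 in bmEC-like to 0.57 in mpEC-like cells. For Tbxa2r the juvenile (6.94e-07) and the aged contrast (0.0331) passed. For Ptgs1 the aged (3.91e-14) and the alendronate contrast (0.00201) passed, and the aged effect ran from -1.16 in rEC-like to 0.38 in bmEC-like cells.

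Members were also found in cells that the comparisons did not use. Ptgs2 had 182 UMIs in 53 of 1034 haematopoietic cells (5.13%), of which 75 came from 17 of 112 cells of aged library 1 and 68 from 12 of 101 cells of aged library 2. Ptgis had 154 UMIs in 74 of 517 mesenchymal cells (14.3%). Unnamed endothelial cells (4381) held 25 UMIs of Ptgs2, of which 23 came from 1 cell of aged library 1, and 37 UMIs of Ptgis, of which 11 came from each aged library. Ptgs1 reached a mean of 342.6 CPM (SD 44.1, lowest 284, highest 409, n = 9 libraries with at least 20 cells) in an unnamed endothelial cluster of 1460 cells led by Tagln, Vwf and Fgl2, above every one of the 5 types.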

How the results depend on the processing

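The 15 calls between types became 9 at resolution 0.5, where 4 types had a value because no Igfbp5/Crispld1 cluster formed, were 10 to 19 under the other settings and 12 to 16 when each library was left out. The 11 juvenile calls became 4 without integration, 7 at resolution 0.3 and 7 with types from marker UMIs, and 9 to 11 when each library was left out. The 16 aged calls became 10 with DESeq2, 5 without integration and 8 with types from marker UMIs, and 10 to 15 when each library was left out, with 10 without adult library 2 and 10 without aged library 1. The 5 PTH calls became 0 without integration and 1 with types from marker UMIs, and 4 to 5 when each library was left out. The 2 alendronate calls became 0 without integration, 1 at resolution 0.3 and 0 with types from marker UMIs, and 1 to 2 when each library was left out. No integration left 2 types with a value for the groups, and resolution 0.3 and marker UMIs left 4, and other causes, and that for DESeq2, were not tested. Lower Ptgs1 in aged mpEC-like cells turned to 0.12 within cluster 8 alone, and higher Ptgs1 in aged bmEC-like cells to -0.17 and -0.19 within clusters 9 and 18. Lower Slco2a1 in aged bmEC-like cells turned to 0.17 without scaling factors and to 0.27, 0.55 and 0.033 within clusters 9, 13 and 18, and the causes were not tested. Over 49 single results and 1085 values, 948 kept direction and side of the threshold, 130 no longer passed and 7 turned. With a replicate block the juvenile calls were 10, as Hpgd in aEC-like cells was lost, and the aged, PTH and alendronate calls were 16, 5 and 2. With the PTH numbers crossed the replicate block gave 5 PTH calls. The share of cells with a UMI depends on depth: it was 29.9% at 2000 UMIs and 51.9% without thinning for Slco2a1 in Igfbp5/Crispld1 cells, 28.2% and 49.9% for Ptgs1 there, and 18.4% and 33.1% for Tbxa2r in mpEC-like cells. RLE scaling moved the median of all genes in the aged contrast from -0.02 to 0.23 in bmEC-like cells and ended the lower Slco2a1 there (-0.01). Depth limits Ptgs2, Ptgis and Hpgd, and rEC-like cells of the juvenile libraries and of PTH library 1.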

Other observations

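Slco2a1 in aEC-like cells passed the PTH contrast without PTH library 2 (0.64, adjusted p = 0.0355). Ptgs2 in aged aEC-like cells was called when some single libraries were left out, with log2 fold changes of 5.87 to 6.92, and all its UMIs there came from 3 cells of aged library 1.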
